A study of Mus musculus with 8 samples.

Results

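Vesicle trafficking genes were followed in the livers of Gpx3 transgenic and wildtype mice. They were taken as the genes whose symbol begins with Rab, Arf or Sec and a digit, with Vps, Snx, Stx or Vamp, or with Cop in the coatomer sense, plus Pheta1 and Gopc. Of 220 mouse genes in the RefSeq table with such symbols, 73 were matched to a probe, by 88 of the 24048 probes on the array. The prefixes took in members that do not move vesicles: Sec1 is a fucosyltransferase gene, Rab10os an antisense RNA, and the Sec11 and Sec61 to Sec63 names belong to protein entry into the endoplasmic reticulum.

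Each of 8 male mice aged 23 weeks gave 1 liver array, 4 of them Gpx3 transgenic and 4 B6/DBA wildtype. Gpx3 encodes a secreted glutathione peroxidase. Every animal ate 4% fat chow to 11 weeks of age and 6% fat chow after that. Which promoter drives the transgene, and how many founder lines it came from, is not stated in the sources used here. Gpx3 itself was matched to no probe, and its signal therefore could not serve as a check on the labels. The animals share no other stated treatment or allele.

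Proteins made on the endoplasmic reticulum leave it in vesicles coated by COPII, and coatomer (COPI) vesicles return material to it from the Golgi. Rab and Arf GTPases mark each membrane and recruit tethers, and SNARE proteins such as syntaxins and Vamps fuse the vesicle with its target. Sorting nexins and Vps proteins sort cargo between endosomes, lysosomes and the Golgi. A liver cell relies on these steps to secrete plasma proteins and lipoproteins and to take up and degrade receptors with their ligands.

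The promoters of 4 members are shown because the groups stood apart or nearly apart at these genes and because they differ in the motifs they hold. Each window runs from 250 bases before to 50 bases after the RefSeq transcript start, in assembly GRCm38.p6, read 5′ to 3′ on the strand of the gene. Capitals mark matches, on either strand, to GTCACGTG (the palindromic core CACGTG with GT before it, as in the lysosomal gene element bound by TFEB), TGACNNNGC (the antioxidant response element core bound by NRF2) or CCAAT (bound by NF-Y). Pheta1 lies at chr5:121848747-121849046 on the plus strand, Snx30 at chr4:59805400-59805699 on the plus strand, Stx6 at chr1:155158453-155158752 on the plus strand and Rab24 at chr13:55321931-55322230 on the minus strand.
Pheta1: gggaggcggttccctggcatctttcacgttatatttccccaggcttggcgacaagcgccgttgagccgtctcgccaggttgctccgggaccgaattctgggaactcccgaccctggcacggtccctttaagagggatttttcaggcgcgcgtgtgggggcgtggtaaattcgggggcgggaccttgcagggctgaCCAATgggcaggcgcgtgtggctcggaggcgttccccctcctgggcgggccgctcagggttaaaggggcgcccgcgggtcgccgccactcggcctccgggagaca
Snx30: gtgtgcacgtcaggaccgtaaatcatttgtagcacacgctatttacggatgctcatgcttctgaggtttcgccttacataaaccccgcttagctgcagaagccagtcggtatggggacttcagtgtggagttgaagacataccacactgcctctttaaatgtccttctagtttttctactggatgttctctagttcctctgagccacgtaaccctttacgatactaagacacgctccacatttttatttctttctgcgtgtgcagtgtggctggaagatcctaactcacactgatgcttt
Stx6: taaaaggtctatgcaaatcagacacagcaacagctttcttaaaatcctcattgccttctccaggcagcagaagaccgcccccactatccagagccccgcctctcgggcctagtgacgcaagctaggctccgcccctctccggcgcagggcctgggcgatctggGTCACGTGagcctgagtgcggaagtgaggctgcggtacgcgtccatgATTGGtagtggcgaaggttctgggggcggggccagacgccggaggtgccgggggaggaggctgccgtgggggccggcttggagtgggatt
Rab24: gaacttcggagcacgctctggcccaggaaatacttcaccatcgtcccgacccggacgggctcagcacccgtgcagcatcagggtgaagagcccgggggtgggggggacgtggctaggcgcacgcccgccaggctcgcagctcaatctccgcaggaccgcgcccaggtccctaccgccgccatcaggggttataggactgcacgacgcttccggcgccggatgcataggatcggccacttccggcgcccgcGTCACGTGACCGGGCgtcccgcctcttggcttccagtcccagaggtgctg

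Pheta1 held 1 CCAAT, beginning 55 bases before the start, and Snx30 held none of the motifs. Stx6 held GTCACGTG, beginning 87 bases before the start, and a CCAAT on the other strand, beginning 40 bases before it. In Rab24 the GTCACGTG began at base 1 of the transcript and overlapped a copy on the other strand at base 3 and a TGACNNNGC at base 7. Of 71 windows found for 60 member genes, 10 (14.1%) held GTCACGTG, against 2.25% of all 32851 windows and 2.84% of the 21263 of protein-coding genes. These were windows of 9 genes, namely Arf5, Rab21, Rab24, Rab3gap2, Rab3il1, Rab5a, Sec62, Stx6 and Vps50. Gopc, Sec24a and Rab8b, whose groups also stood apart, held no GTCACGTG and are not shown. The promoters shown are therefore a selection, and no link between motif and direction can be read from them. TGACNNNGC was in 26.8% of member windows, against 12.4% of all windows and 12.98% of coding ones. CCAAT was in 38.0% of member windows, against 37.4% of all and 38.2% of coding ones. The 9 probes of the GTCACGTG genes had 3 positive and 6 negative log2 fold changes, with a median of -0.07. Sec62, among the positive, read above 16 intensity units on transgenic arrays only, which fixed its direction. A match describes these letters only, and motif shares were compared without a test.

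Signals are background-subtracted intensities in arbitrary units, with 33.1% to 35.3% of an array's probes below 0 and a median per array of 11 to 14.2 units. Values under 16 units were set to 16 (the floor) before log2 was taken, and a probe was tested where at least 1 array lay above it. Of the 88 member probes, 69 (60 genes) were tested and 19 were not. Of the tested probes, 48 (42 genes) lay above the floor on all 8 arrays and 21 on some of them, and for those 21 the fold change depends on the floor. Of 15 hepatocyte markers, 5 were matched to a probe and tested, 4 with positive and 1 with negative log2 fold changes, and their summed signals were 62387 to 66493 units in transgenic livers and 56872 to 74486 units in wildtype livers. These were Ass1 at 0.34, Tdo2 at 0.50, Serpinc1 at 0.09, Apoa1 at 0.02 and Trf at -0.62. Erythroid markers moved with the groups: their summed signal was 9268 to 10422 units in transgenic livers and 10992 to 24096 units in wildtype livers, with 3 of 3 tested genes lower in transgenic livers. Endothelial markers had 3 of 4 tested probes lower, with sums of 719 to 794 units in transgenic and 772 to 895 units in wildtype livers. Their log2 fold changes were -1.04 for Pecam1, -0.48 for Emcn, -0.31 for Egfl7 and 0.08 for Eng. Stellate cell markers had 5 of 6 lower, with sums of 7490 to 8353 units in transgenic and 7955 to 8487 units in wildtype livers. Bright Dcn and Reln probes, at -0.03 each, made up most of these sums. Lrat was at -0.46, with 228 to 323 units in transgenic and 363 to 395 units in wildtype livers. Timp2 was at -0.39. Col1a2 (0.07) and a dim Dcn probe (-0.39) were above the floor in 1 group only, which fixed their direction. The stellate cell markers Col1a1 and Col3a1, the cholangiocyte marker Krt19 and the neutrophil marker Mpo were below the floor on all 8 arrays. Macrophage markers had 3 of 5 probes lower, with sums of 528 to 963 units in transgenic and 572 to 954 units in wildtype livers. Lymphocyte markers summed to 5.3 to 26.4 units in transgenic and 3.9 to 16.2 units in wildtype livers, from 1 matched gene. The part of these markers in any difference below was not tested. In whole liver, fewer cells of a type and less RNA per cell cannot be told apart.

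The comparison asked how the livers of transgenic and wildtype mice differed. None of the 69 tested trafficking probes passed the threshold, an adjusted p under 0.05 in limma, and none of all 14759 tested probes did (0%). Member probes were split evenly, 34 higher and 35 lower in transgenic livers, with a median log2 fold change (transgenic minus wildtype) of -0.020, against -0.015 over all tested probes. Some probes were tested only through arrays of 1 group, which fixed their direction, here and in the other counts of direction. Of the 48 member probes above the floor on all 8 arrays, 25 were higher and 23 lower. Of all 8890 such probes, 4042 were higher and 4848 lower. At an unadjusted limma p under 0.05 stood 6 of 69 member probes (8.70%), against 6.82% of all tested probes. Of these, 4 were higher in transgenic livers, where 3.23% of all probes were, and 2 were lower, where 3.59% were. Pheta1 and Gopc, which were chosen by name with earlier results known, are among the 4. Without them the share was 4 of 67 (5.97%), below that of all probes. The groups did not overlap at 6 of 69 member probes (8.70%), and at 4 of 67 (5.97%) without Pheta1 and Gopc, against 3.56% of all tested probes. Among probes above the floor on all 8 arrays, they did not overlap at 4 of 48 members (8.33%), Pheta1 included, against 5.15% of all. An unadjusted limma p under 0.05 was reached there by 8.33% of members and 8.90% of all probes.

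**Figure D1:**
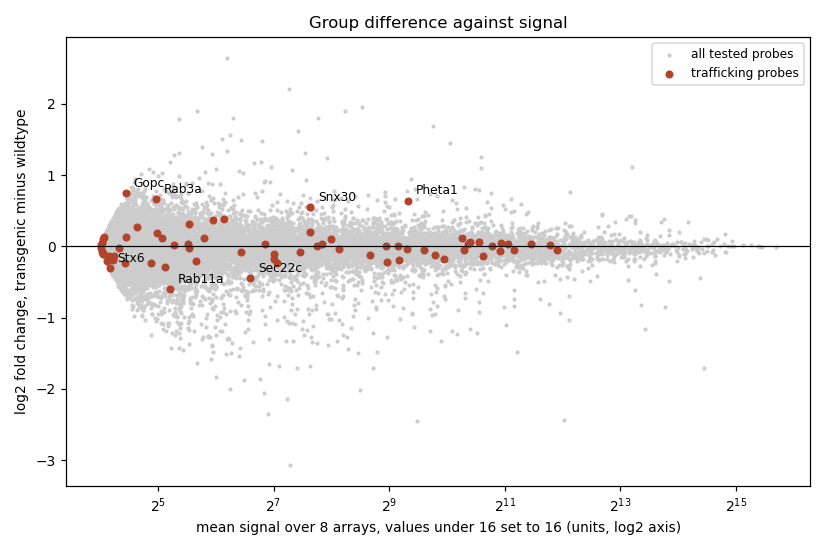
The log2 fold change of each tested probe (vertical axis, transgenic minus wildtype) is plotted against its mean signal over 8 arrays in intensity units (horizontal axis, log scale, values under 16 set to 16). Red points are the 69 trafficking probes and grey points all 14759 tested probes. Most trafficking points lie near 0, with Pheta1 and Snx30 above the others at higher signal.

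Pheta1 encodes a protein that binds the phosphoinositide phosphatase OCRL and acts in recycling from endosomes to the Golgi. Its probe read 870.3, 768.0, 780.2 and 717.3 units in the 4 transgenic livers, against 451.0, 550.0, 479.3 and 526.6 units in the wildtype livers. Every transgenic liver was above every wildtype liver. The fold was 1.56 (95% interval 1.34 to 1.82), with a log2 fold change of 0.64 ± 0.09 (SE, n = 4 each) and an adjusted p of 0.295 in limma, the smallest among the members. The two-sided exact permutation p of 0.0286 is the lower limit of this design. Leaving out any 1 array left the log2 fold change between 0.59 and 0.69.

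Gopc encodes a Golgi protein with a PDZ domain that binds membrane proteins such as the chloride channel CFTR and directs their sorting. Its probe read 31.7, 17.5, 30.3 and 31.6 units in transgenic livers, against 12.4, 15.1, 9.6 and 6.9 units in wildtype livers. All transgenic arrays were above the floor and all wildtype arrays below it, and transgenic animal 2 stood close to the wildtype values. The probe was tested only through its transgenic arrays, and the size of its difference depends on how low signals are handled. The log2 fold change was 0.75 with the floor of 16 units (adjusted p = 0.573 in limma), 1.302 with a floor of 8 units and 0.23 after normexp correction (offset 50). Without transgenic animal 2 the adjusted p in limma was 0.0184, in a fit where all wildtype arrays were set to 16 units and so had no spread of their own.

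**Figure D2:**
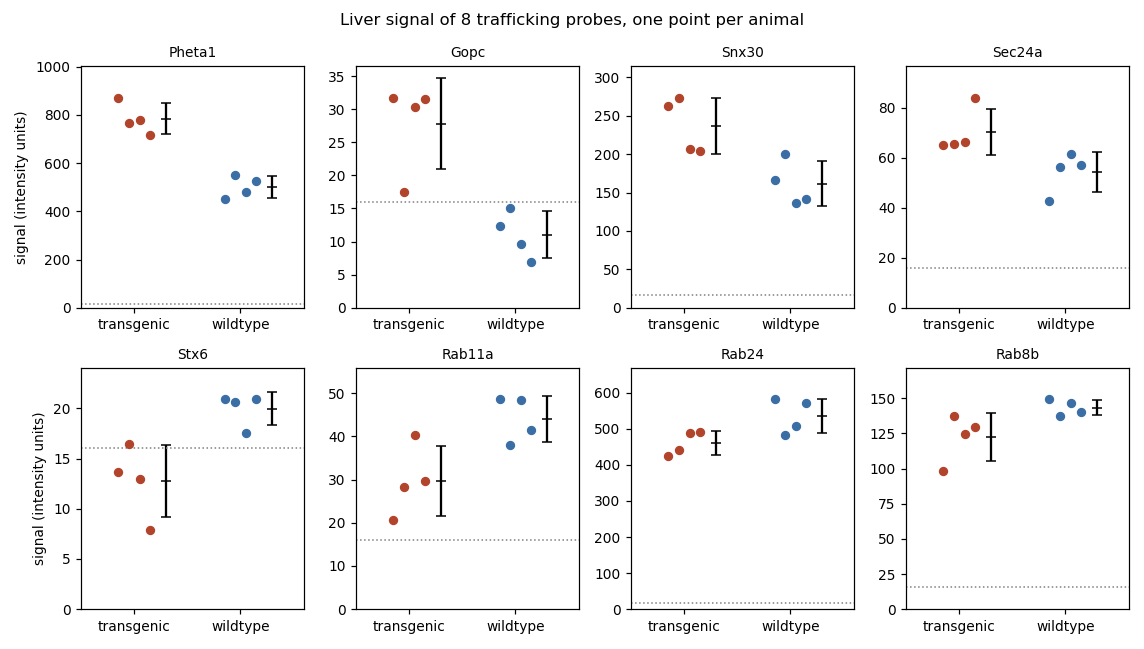
Signal in intensity units (vertical axes, starting at 0) of 8 trafficking probes, with 1 point per animal, transgenic animals in red on the left and wildtype animals in blue on the right. Bars give the mean and SD of 4 animals and the dotted line the floor of 16 units. The groups are apart for Pheta1, Gopc, Snx30, Sec24a, Stx6 and Rab8b, and overlap for Rab11a and Rab24.

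The COPII coat, which buds vesicles from the endoplasmic reticulum, had 3 tested probes, all with higher mean signal in transgenic livers. Sec24a, a cargo-binding coat subunit, read 65.2, 65.6, 66.2 and 83.9 units in transgenic livers, against 42.7, 56.4, 61.3 and 57.1 units in wildtype livers. The groups did not overlap, and the nearest values were 65.2 units in a transgenic and 61.3 units in a wildtype liver. The log2 fold change was 0.37 ± 0.14 (SE, n = 4 each; adjusted p = 0.689 in limma). Sec24b, its paralogue, read 270.4, 253.1, 278.0 and 252.1 units in transgenic livers, against 245.8, 259.0, 234.1 and 241.6 units in wildtype livers, and overlapped (log2 fold change 0.10 ± 0.07, SE). Sec16a, the scaffold of exit sites, averaged 1281 ± 89.3 units in transgenic livers and 1173 ± 14.97 units in wildtype ones (SD, n = 4 animals each). Its spread came mostly from the transgenic animals, which ran from 1158 to 1361 units. Sec23a, the subunit that pairs with Sec24, was below the floor on all 8 arrays.

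At the entry to the pathway, 7 probes of 5 genes were tested, 5 with positive and 2 with negative log2 fold changes, none at an unadjusted p under 0.05 in limma. Sec61b, the beta subunit of the channel that takes nascent proteins across the membrane, had log2 fold changes of -0.17 and -0.13 at its 2 probes. Its dimmer probe averaged 929 ± 39.3 units in transgenic livers and 1054 ± 152 units in wildtype ones (SD, n = 4 animals each), and the wider wildtype spread spanned the transgenic values. Sec61g, the gamma subunit, differed by 0.05 ± 0.12 (SE) on the log2 scale. Sec63, which helps the chaperone BiP pull proteins in, differed by 0.03 and 0.06 at its 2 probes. Sec11a, the catalytic subunit of signal peptidase, read 3352 to 3861 units in transgenic and 3316 to 3817 units in wildtype livers, an almost complete overlap. Sec62, a partner of Sec63, was above the floor on only 2 transgenic and 0 wildtype arrays, which fixed its direction.

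Coatomer, which coats vesicles of the Golgi on their way back, had 4 tested probes of 2 genes, all with small negative log2 fold changes. Copa, the alpha subunit, averaged 1899 ± 143 units in transgenic livers and 1980 ± 68.6 units in wildtype ones (SD, n = 4 animals each), a log2 fold change of -0.06. Cope, the epsilon subunit, had -0.05 at each of its 2 bright probes, and -0.10 at its remaining probe. That probe was above the floor on 1 wildtype array only, which fixed its direction. The 95% intervals of the 3 bright coatomer probes all held 0. Without transgenic animal 4 the log2 fold change of the brightest Cope probe was 0.02. Arf5, a small GTPase of the Golgi coat cycle, was the 1 Arf gene matched to a probe. It read 24.1, 24.2, 19.7 and 41.7 units in transgenic livers, against 30.2, 38.3, 34.0 and 22.9 units in wildtype livers. Its log2 fold change of -0.23 turned to 0.01 with a floor of 32 units. Sec22c, of the Sec22 family of transport proteins, was the most variable member above the floor on all arrays, with 32, 136.3, 58.8 and 120.0 units in transgenic livers, against 171.7, 84.9, 101.2 and 71.8 units in wildtype livers.

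Rab GTPases were the largest class, with 22 genes and 28 probes, of which 23 were tested. Their log2 fold changes were positive at 13 probes and negative at 10, with 1 probe at an unadjusted limma p under 0.05. That was Rab11a, a GTPase of recycling endosomes, with 20.7, 28.3, 40.3 and 29.6 units in transgenic livers, against 48.6, 37.9, 48.5 and 41.5 units in wildtype livers. Only transgenic animal 3 reached the wildtype range. The log2 fold change was -0.60 ± 0.20 (SE, n = 4 each; adjusted p = 0.629 in limma), and -0.17 after normexp with an offset of 50. Rab11b, its close paralogue, averaged 3747 ± 143 units in transgenic livers and 3899 ± 250 units in wildtype ones (SD, n = 4 animals each), with a log2 fold change of -0.06 ± 0.07 (SE).

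Other Rab genes of small p were split between directions. Rab24, a GTPase linked to autophagy, read 424.5, 442.2, 489.1 and 491.5 units in transgenic livers, against 582.2, 482.2, 507.9 and 570.8 units in wildtype livers. The groups overlapped through wildtype animal 2 alone, and the log2 fold change was -0.21 ± 0.09 (SE, n = 4 each; adjusted p = 0.733 in limma). Rab8b, which acts in transport from the Golgi to the cell surface, read 98.3, 137.3, 124.7 and 129.4 units in transgenic livers, against 149.3, 137.5, 146.7 and 140.2 units in wildtype livers. Its groups did not overlap, but came within 137.3 units in transgenic animal 2 and 137.5 units in wildtype animal 2 (log2 fold change -0.24 ± 0.11, SE; adjusted p = 0.754 in limma). Rab8a, its paralogue, differed by 0.04 at its brighter and 0.19 at its dimmer probe, the dimmer with 1 wildtype array below the floor. Rab3a, a GTPase of regulated secretion, had a log2 fold change of 0.66 ± 0.31 (SE, n = 4 each) from 26.8, 40.7, 55.2 and 30.6 units in transgenic livers, against 20.3, 36.3, 24.9 and 11.5 units in wildtype livers. These groups overlapped, and the log2 fold change was 0.24 with a floor of 32 units and 0.19 after normexp.

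The Rab genes of the main endosomal and secretory routes that were bright differed little. Rab7, the GTPase of late endosomes and lysosomes, averaged 1772 ± 73.2 units in transgenic livers and 1757 ± 60.3 units in wildtype ones at its bright probe (SD, n = 4 animals each), a log2 fold change of 0.01. Its dim probes had -0.20 and 0.01, and the first of these was 0.01 without wildtype animal 3. Rab14, which acts between the Golgi and early endosomes, averaged 2856 ± 319 units in transgenic livers and 2776 ± 53.8 units in wildtype ones (SD, n = 4 animals each). Rab4a, of fast recycling, differed by 0.01, Rab35, of recycling from the plasma membrane, by 0.003, and Rab22a and Rab21, of early endosomes, by 0.04 and -0.07 on the log2 scale. Rab5a, the GTPase of early endosome fusion, was above the floor on 3 transgenic and 4 wildtype arrays, at 11.2 to 27.3 and 16.5 to 30.5 units. Rab12 (0.31 ± 0.36, SE) and Rab4b (-0.10 ± 0.13, SE) had overlapping groups. Rab27b was above the floor on 1 transgenic and 3 wildtype arrays at its tested probe. Rab6b, Rab18, Rab20 and Rab26 each lay above the floor on at most 2 arrays, all of 1 group, which fixed their direction. Of 4 Rab-named effectors and regulators, only Rab3gap2, a subunit of the complex that inactivates Rab3, was above the floor on all 8 arrays, at 264 to 292 units in transgenic and 268 to 305 units in wildtype livers (log2 fold change -0.04 ± 0.07, SE). The effectors Rab11fip1 and Rab11fip4 and the exchange factor Rab3il1 were below the floor on 3 arrays each.

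Vps proteins had 7 tested probes among 13, with 3 positive and 4 negative log2 fold changes and none at an unadjusted limma p under 0.05. Vps8, of the CORVET tether of early endosomes, read 130.0, 111.9, 113.0 and 128.6 units in transgenic livers, against 146.9, 139.2, 135.1 and 126.0 units in wildtype livers. Wildtype animal 4 lay inside the transgenic range, and the log2 fold change was -0.18 ± 0.09 (SE, n = 4 each; adjusted p = 0.754 in limma). Vps18, a core subunit shared by CORVET and the lysosomal HOPS tether, differed by -0.19 ± 0.13 (SE) on the log2 scale, with overlapping groups. Vps29, a retromer subunit that returns receptors from endosomes to the Golgi, averaged 212 ± 37.3 units in transgenic livers and 183 ± 25.5 units in wildtype ones (SD, n = 4 animals each). Vps51 and Vps53, subunits of the GARP tether of the Golgi, had log2 fold changes of -0.12 and 0.04, and that of Vps53 was -0.04 without transgenic animal 1. Vps50, which replaces Vps54 in an endosomal relative of GARP, differed by 0.03 ± 0.25 (SE), and Vps13a, a lipid transfer protein, was above the floor on 1 transgenic and 2 wildtype arrays.

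Of 7 sorting nexins, which bind endosomal lipids, 3 had positive and 4 negative log2 fold changes. Snx30 read 263.0, 273.2, 206.1 and 203.7 units in transgenic livers, against 166.7, 200.2, 136.1 and 141.8 units in wildtype livers. The groups did not overlap, with wildtype animal 2 just below the lowest transgenic animal. The fold was 1.47 (95% interval 1.14 to 1.90), with a log2 fold change of 0.56 ± 0.16 (SE, n = 4 each) and an adjusted p of 0.592 in limma. Snx12 had a log2 fold change of 0.39 ± 0.23 (SE), from 68.3, 69.6, 79.4 and 103.5 units in transgenic livers, against 71.2, 68.3, 69.2 and 39.4 units in wildtype livers. The highest transgenic and the lowest wildtype animal made much of that difference, which was 0.17 after normexp. Snx2, a retromer-associated nexin, averaged 851 ± 25.2 units in transgenic livers and 927 ± 51.3 units in wildtype ones (SD, n = 4 animals each), a log2 fold change of -0.12. Snx11 and Snx19 differed by -0.05 and 0.01. Snx5 and Snx29 were above the floor on 2 wildtype and 0 transgenic arrays each, which fixed their direction.

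Among the fusion proteins, Stx6, a syntaxin of the trans-Golgi network and endosomes, read 13.7, 16.4, 13 and 7.9 units in transgenic livers, against 20.9, 20.6, 17.5 and 20.9 units in wildtype livers. The groups did not overlap, but 3 transgenic arrays were below the floor and the wildtype arrays reached only 20.9 units. Its log2 fold change was -0.31 ± 0.08 (SE, n = 4 each; adjusted p = 0.573 in limma), -0.69 with a floor of 8 units and -0.10 after normexp with an offset of 50. Stx8, a syntaxin of late endosomes, differed by 0.06 at its brighter and -0.04 at its dimmer probe, both with overlapping groups. Stx17, which fuses autophagosomes with lysosomes, averaged 85.3 ± 17.8 units in transgenic livers and 88.5 ± 3.69 units in wildtype ones (SD, n = 4 animals each). Stxbp4, which binds syntaxins, differed by -0.02, and Vamp1, a vesicle SNARE, by 0.12 on the log2 scale. Vamp7, a SNARE of lysosomes, was above the floor on 1 transgenic array. Stx3, Stx12, Stx16 and Stx19 were below the floor on all 8 arrays.

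The bright members bound the differences closely. Of 35 member probes with a mean signal over 100 units, 33 had a 95% interval of the fold change inside 1.5-fold in either direction, and 22 inside 1.25-fold. The 2 exceptions were Pheta1 and Snx30. Of the 13 dimmer probes above the floor on all arrays, 4 had an interval inside 1.5-fold, and for the other 9 the interval reached past 1.5-fold on one side or both. The median within-group SD on the log2 scale was 0.114 for the 35 bright member probes and 0.151 for all 5968 probes as bright.

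**Figure D3:**
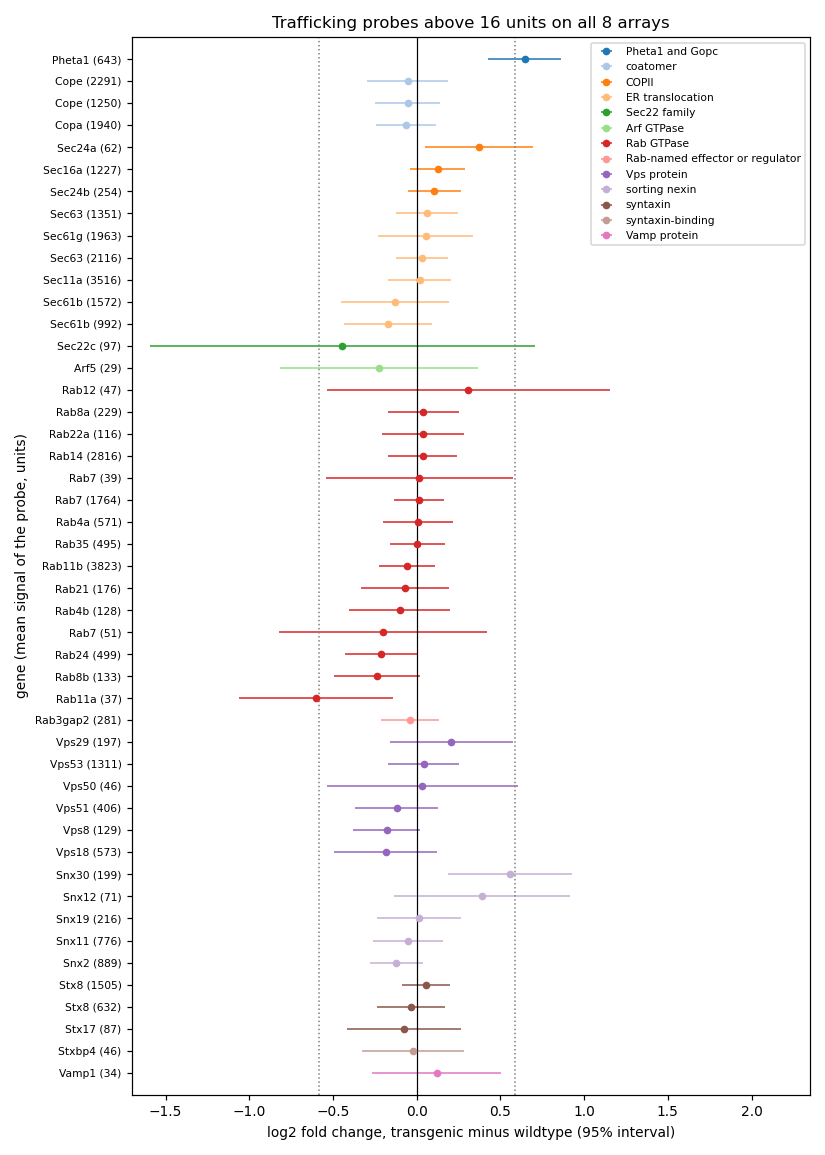
The log2 fold change (horizontal axis, transgenic minus wildtype) with its 95% interval is shown for 47 of the 48 member probes above the floor on all 8 arrays, with the mean signal in units beside each gene and colours for roles. Dotted lines mark 1.5-fold in either direction. Intervals of Pheta1, Sec24a and Snx30 lie above 0 and that of Rab11a below 0.

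Several genes had more than 1 probe, 13 of the 73, and 4 had 2 probes with mean signals over 100 units. The 2 probes of Cope both put transgenic animal 4 and transgenic animal 2 below the mean of their probe, and those of Sec61b both put wildtype animal 1 highest and wildtype animal 3 low. Those of Sec63 both put transgenic animals 1 and 4 and wildtype animal 3 above the other animals. For Stx8 the probes ordered the animals differently, within a narrow range. No gene had tested probes whose log2 fold changes were of opposite sign and more than 0.3 apart.

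**Figure D4:**
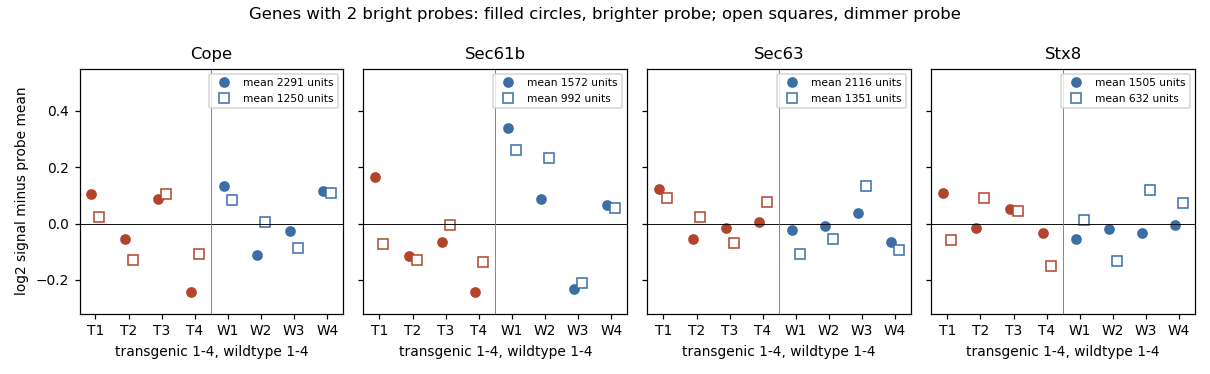
For the 4 genes with 2 bright probes, the log2 signal of each animal relative to the mean of its probe (vertical axis) is plotted by animal (horizontal axis), transgenic animals 1 to 4 on the left and wildtype animals 1 to 4 on the right. Filled circles are the brighter and open squares the dimmer probe, whose mean signals stand in the legends. Both Sec61b probes place wildtype animal 1 highest.

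Genes that work with the members were read from 8 lists of coats, adaptors, tethers, SNAREs, sorting complexes and GTPase regulators. Of 203 entries, 91 genes were matched and 91 probes tested, 42 higher and 49 lower in transgenic livers. At an unadjusted limma p under 0.05 stood 7 (7.69%), 4 higher and 3 lower, against 6.82% of all probes, and 0 passed the adjusted threshold. The groups did not overlap at 4 (4.40%), against 3.56% of all probes. The share was thus near that of all tested probes.

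Sort1, the sorting receptor sortilin of the Golgi, listed with cargo receptors beside the partners of Pheta1 and Gopc, read 428.9, 494.6, 587.8 and 489.0 units in transgenic livers, against 756.4, 627.4, 653.3 and 680.6 units in wildtype livers. The groups did not overlap, and the log2 fold change was -0.45 ± 0.11 (SE, n = 4 each; adjusted p = 0.562 in limma). A second, dimmer Sort1 probe gave 0.02 ± 0.18 (SE), from 31.4, 39.8, 32.8 and 54.9 units in transgenic livers, against 40.7, 38.9, 32.9 and 40.8 units in wildtype livers. The 2 probes therefore did not show the same difference. Pheta2, the paralogue of Pheta1, was above the floor on 2 transgenic and 0 wildtype arrays.

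Among regulators of the Rab and Arf cycle, 11 of 20 tested probes were higher and 9 lower. Rabac1, a Rab acceptor of the Golgi, read 951.0, 853.9, 909.3 and 945.3 units in transgenic livers, against 1045.4, 1059.9, 965.3 and 1101.1 units in wildtype livers, without overlap (log2 fold change -0.19 ± 0.07, SE). Mon1b, part of the complex that activates Rab7, read 156.9, 143.2, 138.4 and 148.2 units in transgenic livers, against 136.5, 132.4, 123.0 and 111.6 units in wildtype livers at its brighter probe, also without overlap. Its log2 fold changes were 0.22 and 0.31 at the brighter and dimmer probes, which had the same direction. Arl8b, which moves lysosomes along microtubules, differed by 0.31 ± 0.12 (SE) with overlapping groups. The adjusted p in limma was between 0.697 and 0.704 for these 4 probes.

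In the other lists, Snf8, a subunit of the ESCRT-II complex that sorts receptors for degradation, read 374.8, 389.8, 366.8 and 375.2 units in transgenic livers, against 357.7, 318.5, 339.9 and 293.7 units in wildtype livers. These did not overlap (log2 fold change 0.21 ± 0.08, SE; adjusted p = 0.697 in limma), while Chmp1a, of ESCRT-III, differed by -0.16. Clathrin and its adaptors had 4 probes higher and 12 lower, with a median of -0.05. Gga3, a clathrin adaptor of the trans-Golgi network, read 16.1, 43.1, 16.8 and 50.3 units in transgenic livers, against 65.3, 77.2, 41.6 and 55.8 units in wildtype livers. Its log2 fold change of -1.08 ± 0.42 (SE; adjusted p = 0.700 in limma) was -0.31 after normexp with an offset of 50. Ap2m1, of the adaptor of endocytosis, averaged 984 ± 60.6 units in transgenic livers and 1115 ± 65.3 units in wildtype ones (SD, n = 4 animals each).

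**Figure D5:**
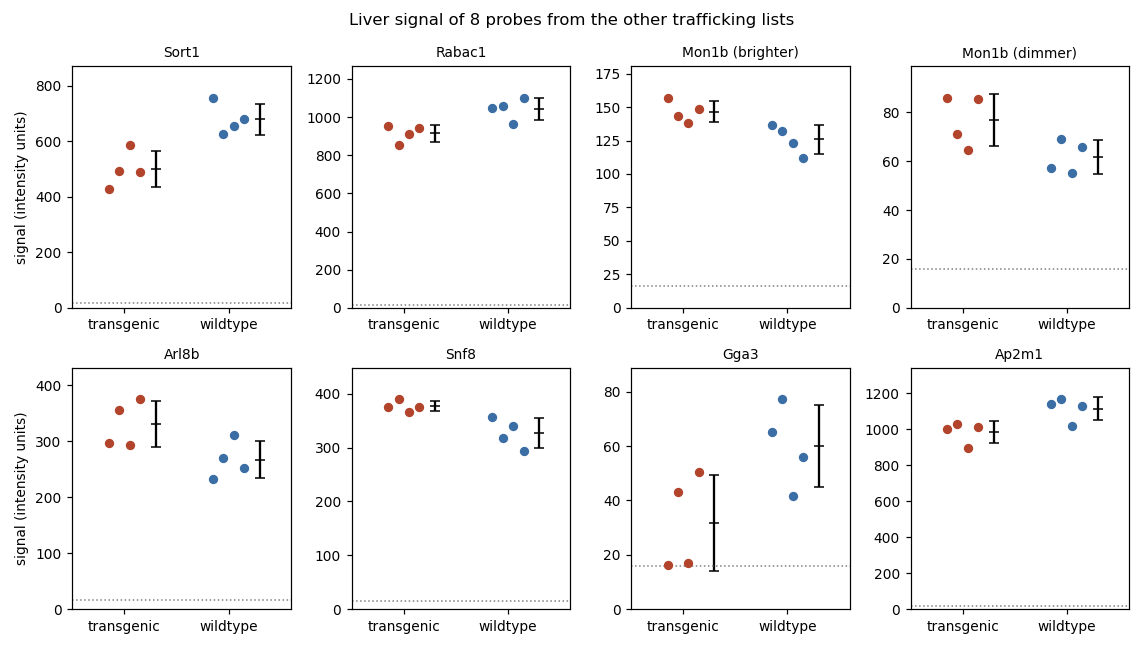
Signal in intensity units (vertical axes, starting at 0) of 8 probes from the lists of genes that work with the members, with 1 point per animal, transgenic animals in red on the left and wildtype animals in blue on the right. Bars give the mean and SD of 4 animals and the dotted line the floor of 16 units. The groups are apart for Sort1, Rabac1, the brighter Mon1b probe and Snf8.

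The lists of export, retrieval, tethering and fusion genes had no probe at an unadjusted p under 0.05 in limma. Endoplasmic reticulum exit genes had 5 probes higher and 7 lower, with Ergic2, of the compartment between the endoplasmic reticulum and Golgi, at 0.34 and Mia3, which helps export of large cargo, at -0.72 and -0.10 at its tested probes. The first Mia3 probe was above the floor on 1 transgenic and 4 wildtype arrays, and gave -0.10 with a floor of 32 units, -1.14 with a floor of 8 units and -0.25 after normexp. Golgi retrieval genes had 3 higher and 2 lower, with Gorasp1, a Golgi stacking protein, at 0.16 and Arfgef1, an Arf activator, at -0.21. Tethering complexes had 9 higher and 9 lower. Trappc3, a TRAPP subunit, had -0.87 ± 0.40 (SE; -0.38 after normexp) at a dim probe and -0.07 at a bright one, and Cog7, of the Golgi COG complex, had -0.47 ± 0.22 (SE). Vti1a, a Golgi SNARE, had 0.12 and -0.10 at its 2 probes. The pairs of Trappc3 and Vti1a probes thus did not give one value per gene.

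The 19 member probes that were not tested read between -32 and 13.8 units over all arrays. For 13 genes no probe was tested, among them Vps39, a HOPS subunit, Vps4b, the ATPase that disassembles ESCRT-III, and Rab9, of transport from late endosomes to the Golgi. A signal under the floor gives only a bound, and the levels of these genes were not measured here in either group.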

How the data were processed

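Liver RNA (100 ng per animal) was labelled and put on Illumina bead arrays. The authors deposited background-subtracted intensity values on a linear scale, and BeadStudio 1.5.1.3 is named per the submitters' processing notes. The background method and any scaling between arrays are not given in the sources used here. Another deposited table, with 64 value columns that no label ties to animals, was not used.

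The strain label gave the group, and accession order only names the animals. The title of transgenic animal 4 has another stem than those of animals 1 to 3, and all wildtype titles share a stem of their own. The meaning is not stated, and whatever the stems mark cannot be told apart from the group. Separate animals were sampled, and p-values measure the spread between these 8 only.

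Numbers in probe identifiers were read as NCBI Gene IDs. Of the 24048 probes, 9523 carried such a number, and 8884 of these (93.3%) were in the RefSeq table (GRCm38.p6), which also gave the promoters. The other probes were matched to no gene, so members among them could not be recognised. Figures over all tested probes include such unmatched probes. Values under 16 were set to 16, log2 taken, and probes with mean log2 above the lower quartile (4) tested with limma 3.58.1 in R 4.3.3 (lmFit, eBayes, two-sided, Benjamini-Hochberg over 14759 probes). Exact permutation tests used 70 assignments. The comparison was tested on simulated data. The number of arrays limits precision.

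Members and lists were chosen with earlier results of these data known. Named were the 10 member probes of smallest p per direction, Pheta1, Gopc, the brightest and most different probe per role, animals far from their group, and 2 genes per list. Other members and Arl8b were named after their values were seen. For 1 member no values are reported here. Alternatives were other floors, filters, scalings, normexp, array weights, 1 probe per gene and leaving out each array.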

Additional observations from a re-analysis of the deposited data

Results flagged for a closer look

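In 8 of 138 groups of 4 animals, 1 animal stood far from the other 3 by Dixon's criterion, which chance meets in about 5% of groups. In transgenic livers, Sec24a read 83.9 units in animal 4 and 65.2 to 66.2 units in the others, and Stxbp4 read 52.4 units in animal 3 and 43.2 to 44.3 units in the others. In transgenic animal 2, Gopc read 17.5 units against 30.3 to 31.7 units in the others, 1 dim Rab7 probe 34.6 units against 49.4 to 50.7 units, and Rab18, under the floor in this group, 10.9 units against 6.3 to 6.5 units. In wildtype livers, animal 4 was low for Vps29, at 144.9 units against 192.1 to 200 units, and for Snx12, at 39.4 units against 68.3 to 71.2 units. Stx6 read 17.5 units in wildtype animal 3 and 20.6 to 20.9 units in the others.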

How the results depend on the processing

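No paired analysis was possible because the labels give no replicate numbers shared between groups. The number of tested probes with an adjusted p under 0.05 in limma, 0 of 14759, was 2 after normexp (offset 50), 1 after quantile scaling, with array medians aligned or with array weights, and 0 to 1 without each array. Among trafficking probes it was 0 under all alternatives but 1, since Gopc passed without transgenic animal 2 (range 0 to 1), in a fit with its wildtype arrays all at the floor and without spread. The median log2 fold change of the trafficking probes, -0.02, was 0.0034 with a floor of 8, 0.0103 with a floor of 32, 0.0038 after normexp, 0.0214 after quantile scaling, 0.0090 with medians aligned, 0.0056 above the floor on all arrays, 0.0034 at a mean signal over 100, 0.0056 with the brightest probe per gene, and -0.041 to 0.0050 without each array, the highest without wildtype animal 1. The number higher at an unadjusted p under 0.05, 4, was 2 at a mean signal over 100 and 4 to 5 without each array. The number lower, 2, was 0 after normexp, 5 with no filter, 1 above the floor on all arrays, 1 at a mean signal over 100, 4 with array weights and 1 to 4 without each array, with 1 without wildtype animal 1 and 4 without transgenic animal 1 or 4 or wildtype animal 2 or 3. Non-overlapping groups, 6, were 3 at a mean signal over 100 and 6 to 11 without each array, the highest without wildtype animal 2, since fewer animals overlap less. The cause of the other shifts was not tested.

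Of 615 log2 fold changes of the 34 member probes named by rule, 600 kept their sign under alternatives and 15, of 7 probes, turned. Members named after their values were seen are not in these counts. Some of those also turned, such as Rab4a (-0.038 to 0.059 without each array) and Rab35 (-0.034 to 0.023). Arf5 was 0.0088 with a floor of 32, and Stxbp4 was 0.011 after quantile scaling and 0.0063 with medians aligned. Sec11a was -0.0037 with array weights, -0.026 without transgenic animal 1 and -0.0076 and -0.0075 without wildtype animals 2 and 3. Without 1 array, Cope was 0.019 and Stx17 0.035 (transgenic animal 4), Rab7 0.0087 (wildtype animal 3) and Vps53 -0.038 (transgenic animal 1). Stxbp4 turned under 6 alternatives in all, at 0.00079 to 0.055, the lowest without transgenic animal 1. The ranges without each array were -0.10 to 0.019 for Cope, -0.42 to 0.0087 for Rab7, -0.026 to 0.060 for Sec11a, -0.19 to 0.035 for Stx17, -0.11 to 0.055 for Stxbp4 and -0.038 to 0.077 for Vps53. Signals near the floor limit the dim probes, whose fold changes depend on the floor.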
